A study of Danio rerio with 5 samples.

Results

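Claudins are the membrane proteins that build the strands of tight junctions, and their genes were followed here in whole kidneys of adult zebrafish (Danio rerio) with and without runx1. The members were all gene IDs whose Ensembl symbol starts with cldn in any letter case, other than the oocyte gene cldnd, with at least 10 counts in total over the 5 libraries. This gave 36 of the 32520 gene IDs in the count tables. The runx1 null libraries, 2 in number and labelled 5 and 6, were made of kidneys from fish homozygous for the runx1 del8 allele (hg96). They were set against 3 libraries, numbered 1, 2 and 3, of kidneys from wild-type siblings. All libraries came from the EK strain, from fish about 2.5 months old, and each pooled 3 kidneys, so the spread between single fish was not measured. The comparison addresses what differs in adult kidneys that lack runx1, a transcription factor needed for the formation of blood stem cells.

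Tight junctions seal the space between neighbouring epithelial cells, and the claudins in them decide what passes. In mammals some claudins, such as CLDN2, CLDN10 and CLDN15, form pores for small ions or water, whereas others, such as CLDN1, CLDN3, CLDN5 and CLDN8, tighten the seal, and each segment of the nephron holds its own combination. Inside the cell the claudins are held by scaffold proteins of the ZO family, and occludin, tricellulin and the angulins join them in the membrane. The zebrafish kidney also holds the blood-forming marrow, so that a whole-kidney library mixes RNA of tubules, glomeruli, vessels and blood cells. Several claudin symbols in the annotation name more than 1 gene ID, as CLDN5, CLDN10 and CLDN11 do here, and these copies are told apart by their IDs. Levels are given in CPM, which are counts per 1e6 of the effective library size. CPM is not corrected for gene length, so it is compared between libraries and not between genes.

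Counts in genes numbered between 27631376 and 33752278 per library, and 3 counts correspond to between 0.0875 and 0.113 CPM. The libraries differed in tissue content across the genotypes. The 9 ovary markers summed to 4.24 and 3746 CPM in runx1 null 5 and 6, against 13.0, 629 and 4.30 CPM in wild type 1, 2 and 3. The 8 proximal tubule markers summed to 2189 and 301 CPM in runx1 null 5 and 6, against 343, 326 and 16.4 CPM in wild type 1, 2 and 3, and the 7 markers of the distal tubule and duct to 1335 and 166 CPM in runx1 null 5 and 6, against 265, 367 and 8.08 CPM in wild type 1, 2 and 3. In each library other than wild type 3, CDH17 gave most of the distal and duct sum. Both tubule sums were thus above 0 in all 5 libraries and lowest in wild type 3. Single genes of the distal list differed, as MECOM was lowest in wild type 1 and slc12a10.2 had 8 counts in total. The pools with most RNA of ovary markers were runx1 null 6 and wild type 2. In bulk RNA fewer cells of a type cannot be told apart from less RNA per cell. RUNX1 itself (ENSDARG00000087646) had 184 and 56 counts in runx1 null 5 and 6, against 139, 90 and 87 counts in wild type 1, 2 and 3, which checks no label, because counts over the whole gene do not show a small deletion.

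No claudin passed the test between the genotypes, although most estimates were positive, runx1 null over wild type. Of the 36 members, 31 had enough counts to be tested, and 0 had an adjusted p-value under 0.05 in edgeR's quasi-likelihood test, where 0.0% of all 20386 tested genes did. The adjusted p-values of the members lay between 0.612 and 0.965, and at an unadjusted p under 0.05 there were 3 members, all higher in runx1 null, beside 3.16% of all tested genes that were higher at this p and 4.37% in either direction. The DESeq2 Wald test gave an adjusted p to 27 members and called 0 of them, with a smallest value of 0.114, while it called 0.427% of the genes with an adjusted p. On the log2 scale the fold changes, runx1 null over wild type, ran from -0.89 to 4.29, with a median of 0.92 beside 0.24 for all tested genes, and standard errors between 0.49 and 2.13. The fold change was positive for 26 of the 31 members, beside 58.2% of all tested genes. Both null libraries lay above all wild-type libraries for 4 tested members, which is 12.9% of them beside 11.1% of all tested genes, and below them for 0 members beside 14.9%. This share of members is near that of all genes. The sign of the median rested on runx1 null 5, since without it the median was -0.21, beside -0.09 for all genes tested then, and without each other library it lay between 0.75 and 1.52. Fewer libraries make a lack of overlap easier. Of the same 31 members, 8 lay above without runx1 null 5, beside 39.3% of all tested genes, 18 without runx1 null 6, beside 29.5%, and 13 without wild type 2, beside 22.9%.

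**Figure D1:**
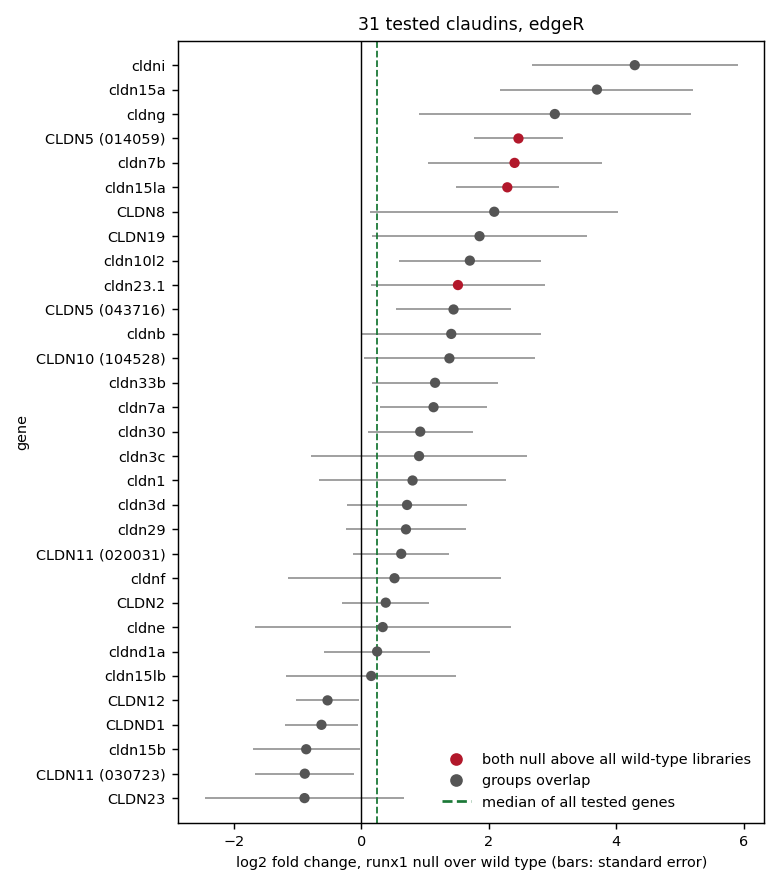
Log2 fold change (x axis, runx1 null over wild type, bars are standard errors) of the 31 tested claudins, 1 row per gene, from edgeR's fit over all genes; copies that share a symbol carry the last 6 digits of their ID. Red points mark the 4 members whose null libraries both lay above all wild-type libraries, and the dashed line is the median of all tested genes, 0.24; 26 points lie right of 0.

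The members were high in different pools, and this split crossed the genotypes. Of the 36 members, 20 were highest in runx1 null 5 and 6 in runx1 null 6, while 5 were highest in wild type 2, 5 in wild type 3 and 0 in wild type 1. Among the tested members, 17 of 31 were highest in runx1 null 5, where 22.8% of all tested genes were highest, and 10 stood there at least 2-fold above each of the other 4 libraries, beside 7.16% of all tested genes. At the other end 17 of 31 were lowest in wild type 3, where 28.6% of all tested genes were lowest. A pair of libraries shared the top more often than genotype did: in 13 of the 31 members, 41.9%, runx1 null 5 and wild type 2 both lay above the other 3 libraries, beside 8.53% of all tested genes. The pair of runx1 null 6 and wild type 2, highest in ovary markers, lay above the rest for 3 members, beside 20.2% of all tested genes. The pairs were chosen after the values were seen, and these counts are a description. Among the markers, runx1 null 5 and wild type 2 were the top pair for 4 of 6 tested genes of the distal tubule and duct. The same held for 2 of 8 of the proximal tubule, 3 of 8 of general epithelium and 2 of 6 of the liver. It held for 2 of 5 of an epidermal list added later, and for 0 of 9 of the ovary. The podocyte, endothelial, interrenal, gut, erythroid and myelin lists had 0 such genes. The other pair, runx1 null 6 and wild type 2, was on top for 9 of 9 ovary markers, 4 of 6 of the liver and 2 of 8 of general epithelium. It was on top for 1 gene each of the distal tubule and duct, interrenal and myelin lists. The 6 liver markers summed to 8191 and 11130 CPM in runx1 null 5 and 6, against 5296, 19000 and 363.5 CPM in wild type 1, 2 and 3. The part of these tissues in the claudin levels was not tested.

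**Figure D2:**
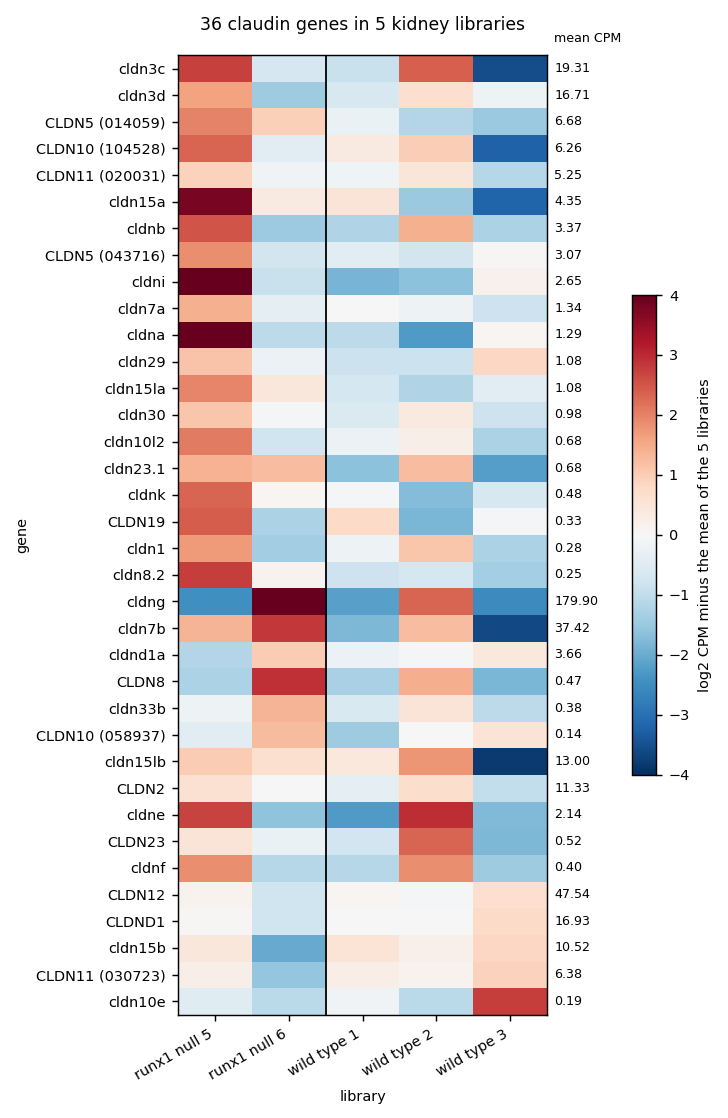
Log2 CPM of the 36 claudin genes (rows) in the 5 libraries (columns, runx1 null left of the line, wild type right), drawn as the difference from each gene's mean over the 5 libraries, with the mean CPM at the right. Rows are ordered by the library in which the gene was highest: 20 in runx1 null 5, 6 in runx1 null 6, 5 in wild type 2 and 5 in wild type 3.

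The claudins named after mammalian pore formers varied between pools of the same genotype. CLDN2 (ENSDARG00000044387), whose mammalian counterpart is the cation and water pore of the proximal tubule, stood at 15.7 and 10.6 CPM in runx1 null 5 and 6, against 8.15, 17.0 and 5.21 CPM in wild type 1, 2 and 3. The groups overlapped, and its log2 fold change of 0.38 was smaller than its standard error of 0.68. The CLDN10 copy ENSDARG00000104528, named for an ion-selective pore of mammalian tubules, stood at 17.4 and 2.45 CPM in runx1 null 5 and 6, against 4.397, 6.74 and 0.302 CPM in wild type 1, 2 and 3. It was highest in runx1 null 5 and lowest in wild type 3, and the groups overlapped. These pools had the most and the fewest tubule markers, but 17 of the 31 tested members were highest in the first. In the second, 17 of the 31 were lowest. Podocyte, gut and epidermal markers also summed highest in runx1 null 5, and the part of these tissues was not tested. The log2 fold change of this CLDN10 copy was 1.38 with a standard error of 1.34, and without runx1 null 5 it was -0.66. The related cldn10l2 showed the same highest and lowest pools, at 2.12 CPM in runx1 null 5 and 0.151 CPM in wild type 3. CLDN19 is not one of the pore formers named above, but is named for a tight-junction protein of the mammalian thick ascending limb and of peripheral myelin. It had 36 and 1 counts in runx1 null 5 and 6, against 11, 0 and 4 counts in wild type 1, 2 and 3.

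Of the CLDN15 relatives, which are named for the cation pore of the mammalian gut, 4 were measured and they were high in different pools. The gene cldn15lb stood at 15.6 and 12.04 CPM in runx1 null 5 and 6, against 10.4, 26.4 and 0.491 CPM in wild type 1, 2 and 3. It was lowest in wild type 3, where it had 13 counts, and its log2 fold change of 0.15 (standard error 1.33) turned negative without runx1 null 5, at -0.07, and without wild type 3, at -0.41. The gene cldn15a stood at 17.9 and 1.57 CPM in runx1 null 5 and 6, against 1.76, 0.396 and 0.0755 CPM in wild type 1, 2 and 3, so that a single pool, runx1 null 5, held most of its counts. Its log2 fold change was 3.70 ± 1.52 (SE), at an adjusted p of 0.612 by edgeR, and without runx1 null 5 it was 1.04. The gene cldn15la, used in zebrafish to mark the epithelium of the intestine, had 96 and 36 counts in runx1 null 5 and 6, against 15, 8 and 14 counts in wild type 1, 2 and 3. Its level was 2.07 ± 1.44 CPM in runx1 null (SD, n = 2) and 0.419 ± 0.121 CPM in wild type (SD, n = 3), without overlap, and its log2 fold change of 2.29 (standard error 0.81) came with an adjusted p of 0.612 by edgeR. The 4 gut markers summed to 54.7 and 16.8 CPM in runx1 null 5 and 6, against 7.21, 9.66 and 0.679 CPM in wild type 1, 2 and 3. These sums did not overlap either, and the gut gene sst2 was at 0 in all 5 libraries. VIL1 gave most of the sum in each library other than wild type 3, with 42.5 and 9.68 CPM in runx1 null 5 and 6. It was highest in runx1 null 5 and lowest in wild type 3, as were the tubule marker sums. FABP2 did not overlap, at 11.9 and 6.91 CPM in runx1 null 5 and 6, against 0.528, 2.88 and 0.264 CPM in wild type 1, 2 and 3. The part of gut or tubule in the level of cldn15la was not tested. The fourth, cldn15b, was lowest in runx1 null 6, and it is described with the claudins of wild type 3.

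Among claudins named for barrier formers, cldn3c and cldn3d showed the split between pools at high counts. CLDN3 is a barrier claudin of mammalian epithelia. The gene cldn3c (ENSDARG00000069503) stood at 49.0 and 4.55 CPM in runx1 null 5 and 6, against 3.96, 38.4 and 0.566 CPM in wild type 1, 2 and 3. Its level was thus within a factor of 2 between runx1 null 5 and wild type 2, and each of these was at least 2-fold above the other 3 libraries. The gene cldn3d (ENSDARG00000015955) stood at 39.0 and 4.69 CPM in runx1 null 5 and 6, against 8.15, 20.5 and 11.2 CPM in wild type 1, 2 and 3, with the same top pair. Their log2 fold changes were 0.91 and 0.72, with standard errors of 1.70 and 0.94, and without runx1 null 5 they were -1.68 and -1.53. The genotypes overlapped for both, and the sign of the fold change rested on 1 library. Members named in the rest of this paragraph were picked with their values in view. The gene cldnb, used in zebrafish to label the migrating lateral line primordium, had 317 and 20 counts in runx1 null 5 and 6, against 24, 130 and 18 counts in wild type 1, 2 and 3, with the same top pair. In the RefSeq annotation of assembly GRCz12tu, cldn3c, cldn3d, cldnb and cldn29 follow each other directly, and the excluded cldnd comes next. The last member of this row, cldn29, did not share the top pair, with 64 and 26 counts in runx1 null 5 and 6, against 16, 13 and 44 counts in wild type 1, 2 and 3.

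Both CLDN7 genes were measured, and their mammalian counterpart is abundant in the distal nephron and collecting duct. The gene cldn7b (ENSDARG00000014047) had 1212 and 3667 counts in runx1 null 5 and 6, against 146, 995 and 31 counts in wild type 1, 2 and 3. Its level was 72.9 ± 48.1 CPM in runx1 null (SD, n = 2) and 13.8 ± 19.2 CPM in wild type (SD, n = 3), and both null libraries lay above all wild-type libraries, although runx1 null 5, at 38.9 CPM, lay little above wild type 2, at 35.9 CPM. The log2 fold change was 2.40 ± 1.37 (SE), at an adjusted p of 0.612 by edgeR, and it stayed positive without each library, between 1.52 and 4.77. Its level was highest in runx1 null 6 and lowest in wild type 3, as was that of 4 of the 8 general epithelium markers, while 7 of the 8 were lowest in wild type 3. The gene cldn7a had far fewer counts, 98 and 29 counts in runx1 null 5 and 6, against 39, 27 and 16 counts in wild type 1, 2 and 3, and its groups overlapped.

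Several further members, of which CLDN8, cldn8.2 and cldn1 are named for barrier formers, had few counts. The gene cldn23.1 had 37 and 36 counts in runx1 null 5 and 6, against 3, 29 and 1 counts in wild type 1, 2 and 3. Its null libraries both lay above all wild-type libraries, but at 1.05 CPM in runx1 null 6 and 1.04 CPM in wild type 2 the gap was far below the counting error, and with upper quartile scaling its groups overlapped, which left 3 members without overlap. Its log2 fold change was 1.52 with a standard error of 1.36. CLDN23, named like it for a claudin of the mammalian gut, was highest in wild type 2, with 14 and 8 counts in runx1 null 5 and 6, against 5, 48 and 1 counts in wild type 1, 2 and 3. CLDN8, named for a barrier claudin of the mammalian distal nephron, had 1 and 58 counts in runx1 null 5 and 6, against 1, 16 and 0 counts in wild type 1, 2 and 3, mainly in the 2 pools highest in ovary markers. Its relative cldn8.2 was seen in another pool, with 33 and 4 counts in runx1 null 5 and 6, against 1, 1 and 0 counts in wild type 1, 2 and 3. The gene cldn1, named for the skin barrier claudin of mammals, had 23 and 1 counts in runx1 null 5 and 6, against 5, 13 and 1 counts in wild type 1, 2 and 3. Its top pair was again runx1 null 5 and wild type 2. The gene cldn30 had 60 and 28 counts in runx1 null 5 and 6, against 19, 32 and 12 counts in wild type 1, 2 and 3, with that top pair as well. The gene cldn33b had 8 and 30 counts in runx1 null 5 and 6, against 6, 13 and 3 counts in wild type 1, 2 and 3, and was highest in runx1 null 6.

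The smallest p-value of the 31 tested members, 0.0129 before adjustment by edgeR's quasi-likelihood test, was that of a CLDN5 copy. CLDN5 is the claudin of the endothelial barrier in mammals, and is also found in podocytes, the filtering cells of the glomerulus. The copy ENSDARG00000014059 had 547 and 299 counts in runx1 null 5 and 6, against 125, 53 and 41 counts in wild type 1, 2 and 3. Its level was 13.1 ± 6.25 CPM in runx1 null (SD, n = 2) and 2.37 ± 1.13 CPM in wild type (SD, n = 3), and the lower null library was more than 2-fold above the highest wild-type library. The log2 fold change was 2.47 ± 0.70 (SE). After adjustment p was 0.612 by edgeR and 0.114 by the DESeq2 Wald test, so it passed neither, and without each library the log2 fold change lay between 1.85 and 3.00. The other copy, ENSDARG00000043716, stood at 8.54 and 1.37 CPM in runx1 null 5 and 6, against 1.70, 1.37 and 2.38 CPM in wild type 1, 2 and 3. It was high in runx1 null 5 alone, and runx1 null 6 lay within the range of the wild-type libraries, so the groups overlapped, at a log2 fold change of 1.45 with a standard error of 0.91. Of the 5 tested endothelial markers 0 lay above and 1 below the wild-type libraries in both null libraries, beside 11.1% and 14.9% of all tested genes. They summed to 378 and 93.5 CPM in runx1 null 5 and 6, against 212, 145 and 162 CPM in wild type 1, 2 and 3. Of the 6 podocyte markers 3 lay above, beside the same 11.1%. All 6 together summed to 198 and 38.8 CPM in runx1 null 5 and 6, against 53.7, 40.3 and 48.2 CPM in wild type 1, 2 and 3. The part of either cell type in the CLDN5 counts was not tested.

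Claudins of myelin gave a mixed picture. CLDN11 is found in mammalian myelin and in the Sertoli cells of the testis. The CLDN11 copy ENSDARG00000020031 stood at 9.02 and 4.29 CPM in runx1 null 5 and 6, against 4.19, 6.63 and 2.11 CPM in wild type 1, 2 and 3, with the top pair of runx1 null 5 and wild type 2. The gene cldnk, which marks the myelin-forming glia of zebrafish, had 51 and 10 counts in runx1 null 5 and 6, against 9, 1 and 4 counts in wild type 1, 2 and 3 and did not pass the filter on low counts. The 5 myelin markers summed to 189.8 and 30.4 CPM in runx1 null 5 and 6, against 13.3, 12.8 and 17.0 CPM in wild type 1, 2 and 3, so they were highest in the pool where cldnk was highest; their part in its level was not tested.

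The gene cldng took most claudin counts of 1 library. It had 144 and 25921 counts in runx1 null 5 and 6, against 191, 3584 and 114 counts in wild type 1, 2 and 3 (ENSDARG00000003701). This was 78.1% of all claudin counts in runx1 null 6 (95% Wilson interval 77.6% to 78.5%, counting error only), 33.8% in wild type 2 (32.9% to 34.7%) and between 1.24% and 3.80% in the other 3 libraries. Both libraries with high shares were those highest in ovary markers. The CPM of cldng in runx1 null 6 was 5.85 times that in wild type 2, and for the 9 ovary markers this ratio lay between 5.15 and 8.40 with a median of 5.76. In the 3 pools low in ovary markers cldng still stood between 4.30 and 5.599 CPM, whereas cldnd, the oocyte gene left out of the members, had 7 and 28821 counts in runx1 null 5 and 6, against 2, 3174 and 4 counts in wild type 1, 2 and 3. The log2 fold change of cldng, 3.04 with a standard error of 2.13, came with an adjusted p of 0.612 by edgeR, and it was -3.30 without runx1 null 6 and 6.31 without wild type 2. The genotypes overlapped, and the part of ovary RNA in the level of cldng was not tested.

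In runx1 null 6 and wild type 2, but not in the other libraries, cldng led the sum over all members. The 36 members summed to 372 and 968 CPM in runx1 null 5 and 6, against 147, 382 and 166 CPM in wild type 1, 2 and 3. The mean log2 of the sum was higher by 1.51 in runx1 null than in wild type. Without cldng the members summed to 367 and 212 CPM in runx1 null 5 and 6, against 142, 253 and 162 CPM in wild type 1, 2 and 3, a difference of 0.64 on the log2 scale. In both versions the groups overlapped.

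**Figure D3:**
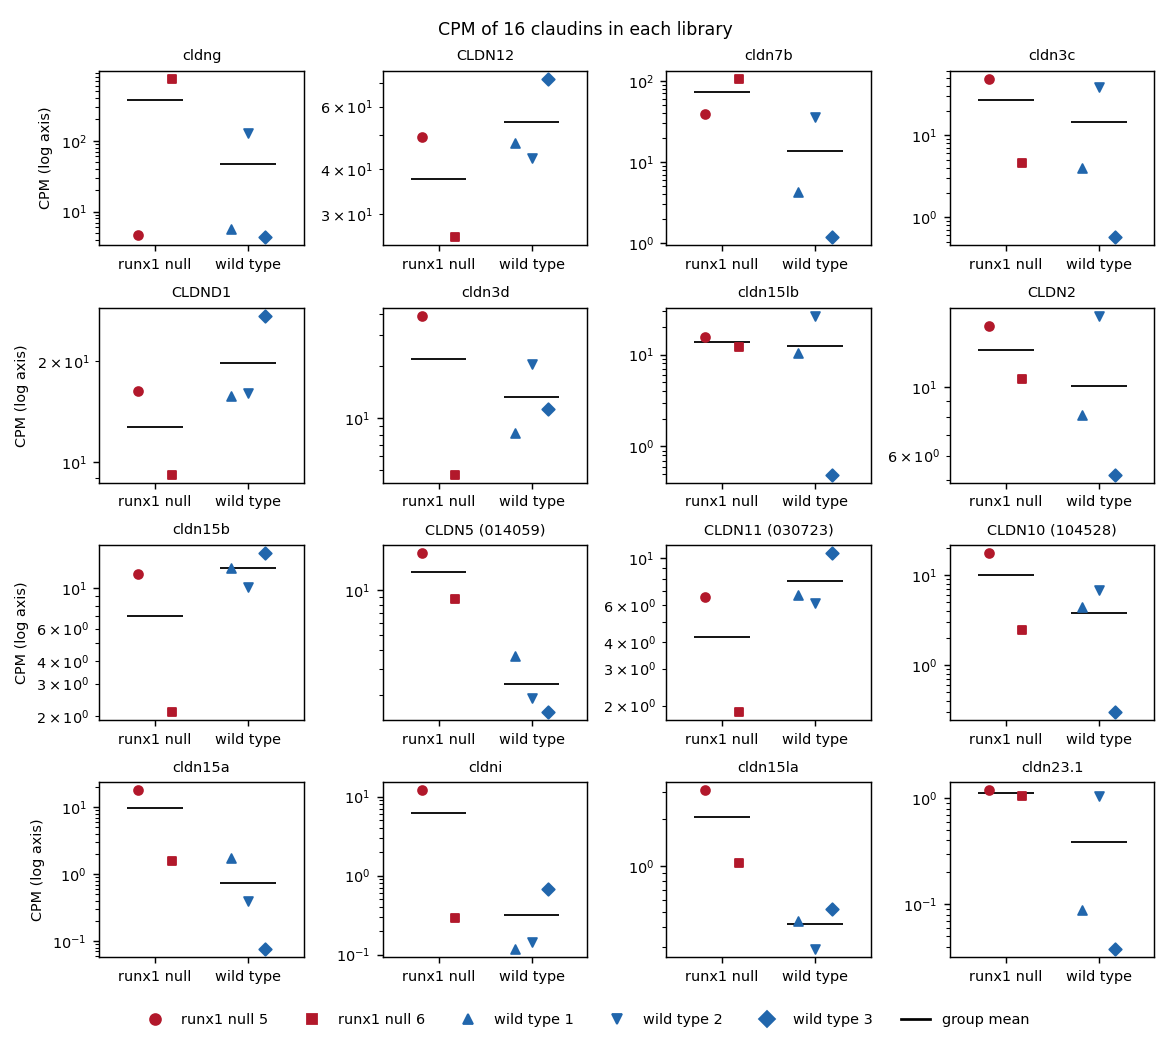
CPM (y axis, log scale, 1 panel per gene) of the 16 claudins chosen for the most counts, no overlap or the largest fold change, in 2 runx1 null (left) and 3 wild-type libraries (right); black lines are group means. The CLDN5 copy ENSDARG00000014059 and cldn15la are separated by genotype, while cldng is high in runx1 null 6 and wild type 2, and cldn3c in runx1 null 5 and wild type 2.

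Of the 31 tested members, 4 were highest in wild type 3, the pool with the fewest tubule markers, beside 25.3% of all tested genes. CLDN12 (ENSDARG00000003927), a broadly expressed claudin in mammals, stood at 49.2 and 25.8 CPM in runx1 null 5 and 6, against 47.6, 43.2 and 72.0 CPM in wild type 1, 2 and 3. CLDND1 (ENSDARG00000052386), a claudin-domain protein, stood at 16.3 and 9.18 CPM in runx1 null 5 and 6, against 15.7, 16.1 and 27.3 CPM in wild type 1, 2 and 3. The gene cldn15b stood at 11.97 and 2.099 CPM in runx1 null 5 and 6, against 12.9, 10.1 and 15.5 CPM in wild type 1, 2 and 3, and the CLDN11 copy ENSDARG00000030723 at 6.58 and 1.87 CPM in runx1 null 5 and 6, against 6.74, 6.13 and 10.6 CPM in wild type 1, 2 and 3. All 4 were lowest in runx1 null 6, where 36.45% of all tested genes were lowest. For each of them runx1 null 5 lay inside the wild-type range, so the groups overlapped. Their log2 fold changes were -0.53, -0.63, -0.87 and -0.89, with standard errors between 0.49 and 0.84, and without runx1 null 6 they lay between -0.23 and -0.06. The 5 erythroid markers summed to 35740 and 4777 CPM in runx1 null 5 and 6, against 30380, 28430 and 51290 CPM in wild type 1, 2 and 3. Their sum too was highest in wild type 3 and lowest in runx1 null 6, and most of it was hbaa1. Unlike these claudins, 4 of the 5 erythroid markers lay below all wild-type libraries in both null libraries, beside 14.9% of all tested genes. The part of erythroid cells in these claudins was not tested. The other claudin-domain gene, cldnd1a, was highest in runx1 null 6 and stood at 1.41 and 6.68 CPM in runx1 null 5 and 6, against 2.76, 3.10 and 4.38 CPM in wild type 1, 2 and 3. The gene cldn10e was also highest in wild type 3, with 1 and 0 counts in runx1 null 5 and 6, against 2, 0 and 23 counts in wild type 1, 2 and 3.

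The lettered claudins are a fish expansion related to CLDN3 and CLDN4, and 7 of them were members. The log2 fold change was positive for all 5 that were tested, with a median of 1.41, but the groups of each overlapped. The gene cldni had the largest fold change of all members, at 4.29 ± 1.62 (SE) on the log2 scale, with an adjusted p of 0.612 by edgeR. Its counts were mostly from 1 pool, with 375 and 10 counts in runx1 null 5 and 6, against 4, 4 and 18 counts in wild type 1, 2 and 3, and without runx1 null 5 the log2 fold change was -0.12. The next members were picked with their values in view. The gene cldna was likewise seen in runx1 null 5, with 188 and 3 counts in runx1 null 5 and 6, against 3, 0 and 7 counts in wild type 1, 2 and 3, and was not tested. The genes cldne and cldnf, which follow each other directly in the RefSeq annotation of GRCz12tu with cldna next to them, were high in a pair of libraries across the genotypes. For cldne there were 147 and 6 counts in runx1 null 5 and 6, against 3, 155 and 4 counts in wild type 1, 2 and 3, and for cldnf 29 and 2 counts in runx1 null 5 and 6, against 2, 26 and 1 counts in wild type 1, 2 and 3. The neighbours cldne and cldnf thus shared runx1 null 5 and wild type 2, and cldna did not appear in wild type 2. A list of 8 epidermal markers, added after these values were seen, summed to 817 and 29.9 CPM in runx1 null 5 and 6, against 40.2, 92.2 and 80.6 CPM in wild type 1, 2 and 3. The keratin gene krt5 stood at 568 and 3.59 CPM in runx1 null 5 and 6, against 1.82, 10.9 and 12.3 CPM in wild type 1, 2 and 3. In runx1 null 5, krt5 gave most of the sum of this list. TP63, on the same list, stood at 11.2 and 9.36 CPM in runx1 null 5 and 6. Its levels in wild type 1, 2 and 3 were 1.41, 3.53 and 3.06 CPM. TP63 was thus high in runx1 null 6 as well, where cldni and cldna had few counts. The sum of the list and all 5 of its tested genes were highest in the pool where cldni and cldna were highest. The part of skin in the levels of cldni and cldna was not tested.

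The median difference between null and wild-type pools had opposite signs in the 2 classes of pools. Between runx1 null 6 and wild type 2, the pools highest in ovary markers, the median difference of the 31 tested members was -0.62 on the log2 CPM scale, and 13 were higher in runx1 null 6; the median of all tested genes was 0.04. In the other class, runx1 null 5 minus the average of wild type 1 and 3, the median difference was 2.05, beside 0.06 for all tested genes. Here 25 members were higher in runx1 null 5 than in both wild-type libraries, beside 8343 of all 20386 tested genes. With 1 null library in each class there was no test, and the pools within a class differed in tissue content. Ovary markers summed to 3746 CPM in runx1 null 6, against 629 CPM in wild type 2. Proximal tubule markers summed to 2189 CPM in runx1 null 5, against 343 and 16.4 CPM in wild type 1 and 3. The part of tissue content in these differences was not tested. The differences for cldn3c were -3.06 and 4.95, those for cldne -4.56 and 4.72, and those for the CLDN10 copy ENSDARG00000104528 -1.44 and 3.77. Each of these genes had runx1 null 5 and wild type 2 as its top pair, which already sets both signs. The same holds for all 13 members with that top pair, so the opposite signs largely restate it. The classes were chosen after the data were seen. For the CLDN5 copy ENSDARG00000014059 the differences were 2.15 and 2.85, and for cldn15la 1.66 and 2.52, where the sign was already set by the lack of overlap.

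**Figure D4:**
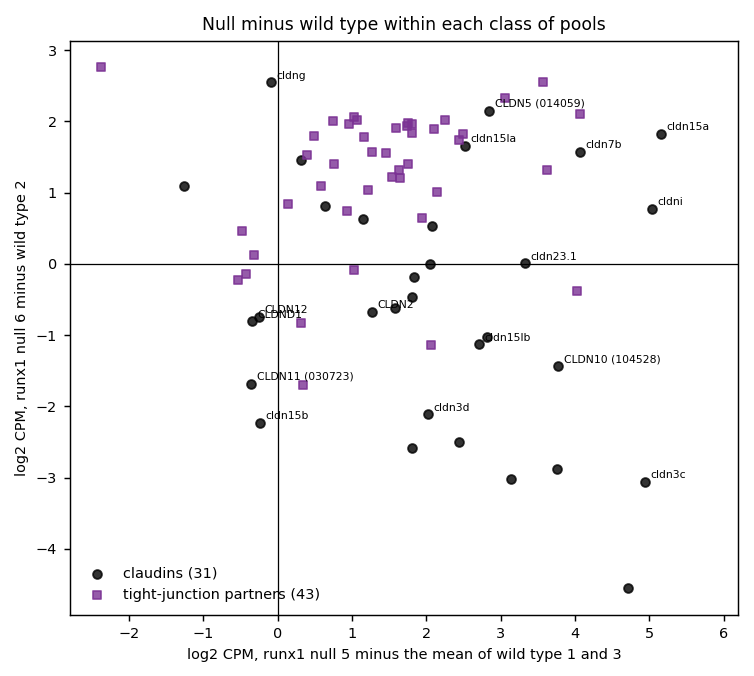
Difference in log2 CPM between runx1 null 6 and wild type 2 (y axis) against runx1 null 5 minus the average of wild type 1 and 3 (x axis), for 31 claudins (black) and 43 tight-junction partners (purple), 1 point per gene. The claudins spread to the lower right, with medians of 2.05 on the x axis and -0.62 on the y axis, while the partners have medians of 1.46 and 1.53.

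The partners of claudins in the junction did not pass the test either, although most estimates were positive, runx1 null over wild type. Of 44 gene IDs on a list of scaffolds, MARVEL proteins, junctional adhesion molecules, angulins and polarity proteins, 43 were tested, and edgeR called 0 of them at an adjusted p under 0.05, as for 0.0% of all tested genes. At an unadjusted p under 0.05 there were 10, all higher in runx1 null, beside 3.16% of all tested genes that were higher at this p. The DESeq2 Wald test called 0 of them, with a smallest adjusted p of 0.0644. The log2 fold change was positive for 38 of 43, beside 58.2% of all tested genes, with a median of 1.65. Both null libraries lay above all wild-type libraries for 15, 34.9% beside 11.1% of all tested genes. More partners, 17 of 43 or 39.5%, had runx1 null 6 and wild type 2, the pools highest in ovary markers, above the rest. This was so for 20.2% of all tested genes. The median rested partly on runx1 null 6, and it was 0.63 without that library. In runx1 null 6, 31 of the 43 were highest, beside 34.9% of all tested genes. The count of 15 became 34 of 43 without runx1 null 5, where 39.3% of all tested genes lay above, and 33 without wild type 2, where 22.9% did. The 12 scaffolds had a median of 1.68 and the 4 angulins, which seal the corners where 3 cells meet, one of 2.45, against 0.38 for the 6 junctional adhesion molecules. The median differences of the partners were 1.53 in the class high in ovary markers and 1.46 in the other class, positive in both, and the difference from the claudins was not tested.

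Several partners did not overlap between the genotypes. TJP1 (ENSDARG00000077506), a ZO-1 scaffold, stood at 56.8 and 63.6 CPM in runx1 null 5 and 6, against 23.0, 21.3 and 23.97 CPM in wild type 1, 2 and 3. The libraries of each genotype lay close together, and the log2 fold change was 1.41 ± 0.38 (SE), at an adjusted p of 0.612 by edgeR. Its paralogue tjp1b stood at 20.6 and 76.6 CPM in runx1 null 5 and 6, against 11.7, 19.5 and 9.51 CPM in wild type 1, 2 and 3, where runx1 null 5 lay little above wild type 2. ILDR2 (ENSDARG00000014180), an angulin, stood at 9.73 and 6.79 CPM in runx1 null 5 and 6, against 1.96, 1.62 and 2.04 CPM in wild type 1, 2 and 3, with a log2 fold change of 2.14, a standard error of 0.59 and adjusted p-values of 0.612 in edgeR and 0.0644 in the DESeq2 Wald test. The polarity genes pard3bb and PARD3 (ENSDARG00000010583) had log2 fold changes of 1.99 and 1.97, and the scaffold MAGI1 (ENSDARG00000003169) one of 2.22, all without overlap and with 1 shared adjusted p of 0.612 by edgeR. The occludin gene oclna stood at 10.21 and 121 CPM in runx1 null 5 and 6, against 3.58, 30.6 and 2.49 CPM in wild type 1, 2 and 3 and overlapped, with its highest levels in the pools highest in ovary markers and a log2 fold change of -0.23 without runx1 null 6. Of the tricellulin copies, MARVELD2 ENSDARG00000025076 did not overlap, at 1.75, and ENSDARG00000061651 overlapped, at 1.84. The 8 general epithelium markers summed to 1041 and 839.8 CPM in runx1 null 5 and 6, against 391, 740.2 and 369.9 CPM in wild type 1, 2 and 3. In each library other than runx1 null 6, krt8 gave most of this sum. The mean log2 CPM of the 8 was 5.68 and 5.85 in runx1 null 5 and 6, against 3.27, 5.46 and 1.03 in wild type 1, 2 and 3. In both null libraries 3 of the 8 lay above all wild-type libraries, beside 11.1% of all tested genes. The part of these markers in the partner levels was not tested.

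**Figure D5:**
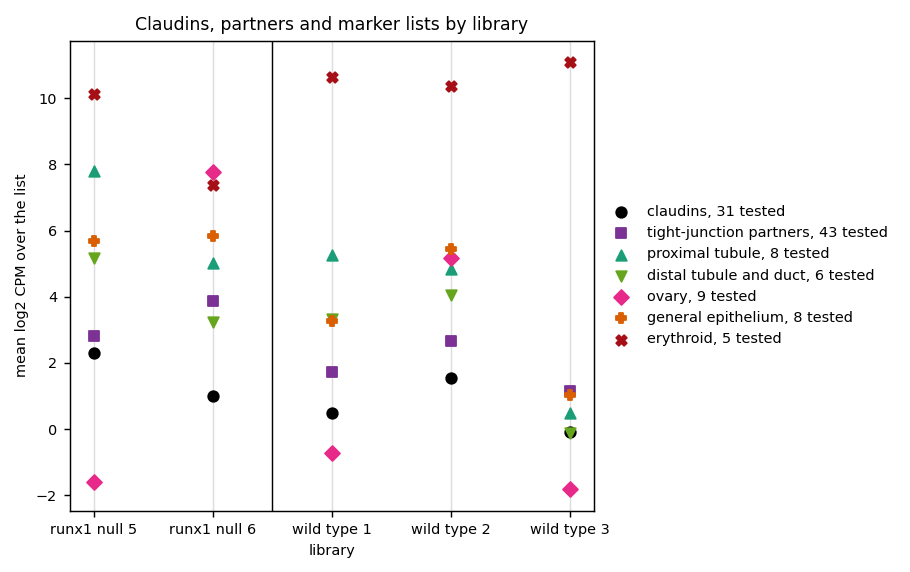
Mean log2 CPM (y axis) over the tested genes of each list in each library (x axis, runx1 null left of the line, wild type right). The claudin mean is highest in runx1 null 5, at 2.31, the partner mean in runx1 null 6, at 3.88, and the ovary markers are high in runx1 null 6 and wild type 2 alone.

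A second scale, log2 CPM minus the mean log2 CPM of the 14 tested tubule markers of the same library, gave no separate evidence on the claudins. The tubule mean itself was 6.68 and 4.25 in runx1 null 5 and 6, against 4.42, 4.51 and 0.23 in wild type 1, 2 and 3. Its group means thus differed by 2.41, which is taken from the difference of every gene, so that on this scale 95.5% of all tested genes were lower in runx1 null. The median difference of the members, runx1 null minus wild type, was -1.50 beside -2.21 for all tested genes, and without wild type 3 it was -0.56 beside -0.86. Both null libraries lay below every wild-type library for 7 of the 31 members, beside 36.4% of all tested genes, and above for 0, beside 0.177%. A positive difference remained for 4 members, which were cldn7b at 1.07, cldn15a at 1.06, cldni at 0.36 and the CLDN5 copy ENSDARG00000014059 at 0.04.

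Not every member was detected in each library. Members with at least 10 counts numbered 32 and 27 in runx1 null 5 and 6, against 23, 28 and 21 in wild type 1, 2 and 3. Of the 5 members left untested, cldna, cldnk and cldn8.2 were seen mainly in runx1 null 5, cldn10e in wild type 3, and the second CLDN10 copy, ENSDARG00000058937, had 2 and 12 counts in runx1 null 5 and 6, against 0, 3 and 5 counts in wild type 1, 2 and 3. Below the limit of 10 counts lay 5 further IDs: cldnj with 9 counts in total, all in wild type, cldn10d with 1, and cldn18, cldn23l and cldn26 with 0. A count of 0 in a library allows a level of up to 3 counts, so the 3 genes with 0 were not detectable at this depth.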

How the data were processed

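For each of the 5 libraries the authors deposited raw read counts, 1 value per Ensembl gene ID, without normalization. HISAT2 2.2.1.0, HTSeq 0.11.4, DESeq2 and the build GRCz11 are named in the submitters' processing notes, without roles. Per the labels' protocols, RNA came from pools of 3 kidneys and libraries were made with the TruSeq RNA v2 paired-end kit. The strand setting is not given in the sources used here, so antisense and overlapping genes are uncertain. Reads with more than 1 alignment, between 8.58% and 10.3% per library, were counted for no gene, so similar claudin copies can be undercounted.

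Genes were filtered with filterByExpr (minimum count 10, minimum total 15), scaled with TMM, and tested with the quasi-likelihood test of edgeR 4.0.16 (robust, two-sided, no covariate) with Benjamini-Hochberg adjustment over 20386 genes. log2 CPM used a prior count of 2. The alternative test was DESeq2 1.42.0, run in R 4.3.3 with limma 3.58.1. Tables were made with pandas 2.3.3 in Python 3.11.15 and plots with matplotlib 3.10.9. Symbols are those of the Ensembl ID table, and neighbours are those of RefSeq GRCz12tu by symbol, where 27 of 30 unshared member symbols were found. Marker names that matched several IDs were not used. Full values are given for the 12 members with the most CPM, those without overlap and the 5 with the largest fold changes, and for the partners by a like rule. Other members and single markers were picked with their values in view. The members and lists were chosen with earlier results of these data known. The fits were tested on simulated data first, and that outcome is not used here. The labels do not say that pools came from separate clutches, so p-values measure the spread between these pools.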

Additional observations from a re-analysis of the deposited data

How the results depend on the processing

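No paired analysis was possible because null pools are numbered 5 and 6 and wild-type pools 1 to 3. With the DESeq2 Wald test 81 genes passed an adjusted p of 0.05 (29 higher, 52 lower) against 0 in edgeR. Which of the 81 calls were right was not tested. A lack of calls by edgeR does not show a lack of change, because the spread between these few pools was large. Claudins and partners called numbered 0 in each setting run, but edgeR called 0 of all genes in each as well, so these counts say nothing about stability. The median log2 fold change of the claudins lay between -0.21 and 1.52 without single libraries, was -0.62 within the pools with high ovary markers and 2.05 within the other pools, both chosen after seeing the data, and 0.92 without cldng. That of the partners lay between 0.63 and 2.19 without single libraries. Claudins above all wild-type libraries numbered between 5 and 18 without single libraries, and partners between 16 and 34, beside 13.0% to 39.3% of all tested genes. Among named genes the sign reversed in these cases, each without 1 library: cldng ranged from -3.30 to 6.31, cldn3c from -1.68 to 3.57, cldn3d from -1.53 to 1.59, cldn15lb from -0.41 to 1.36, the CLDN10 copy ENSDARG00000104528 from -0.66 to 2.22, cldni from -0.12 to 5.30 and oclna from -0.23 to 4.47. With upper quartile scaling the median log2 fold change of all genes was 0.07, against 0.24 with TMM, while that of the claudins was 0.92 with both. The other 236 comparisons of named genes with an alternative and the other 75 of counts and medians kept their direction and side of the threshold. Without wild type 3, cldni did not pass the filter and gave no value. The common biological coefficient of variation was 0.788, so with 2 null libraries precision is limited by the spread between pools, and for members under 10 counts in a library by depth as well.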
